A study of Mus musculus with 6 samples.

Results

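Genes of glycolysis and of the hypoxia response were followed in mouse bone marrow cultures exposed to heme. The 42 genes were taken from a list: 23 glycolytic enzymes and transporters, 17 other targets of the hypoxia-inducible factors (HIFs), and the HIF alpha subunit genes Hif1a and Epas1. Each gene was read from the probe set that names only that gene and has the highest mean over the arrays. That left 39 genes of the 19938 with such a probe set, and 38 of them reached the level filter that 11516 genes passed.

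Adherent cells came from GM-CSF cultures of Spic(igfp/igfp) bone marrow, and all groups share that genotype, so no other Spic genotype was compared. The groups were 80 µM heme, an iron-containing porphyrin, for 6, 24 or 72 h, and the salt and ammonia vehicle for the same times, both given after 6 days of culture with 20 ng/ml GM-CSF. The dose is typed with a lower-case m in the labels and was read as µM. Each of the 6 groups was 1 array; the labels and design text do not state the age of the mice, how many were pooled or what the igfp allele carries.

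Glycolysis converts glucose to pyruvate in the cytosol, and lactate dehydrogenase turns pyruvate into lactate, which monocarboxylate transporters carry out of the cell. HIF-1 and HIF-2 are transcription factors made of an oxygen-labile alpha subunit and a stable partner, ARNT. Prolyl hydroxylases use oxygen and iron to mark the alpha subunits for destruction, and when this slows, HIFs raise transcription of glycolytic genes, of the hydroxylases themselves and of genes for mitophagy, vessel growth and glycogen storage. In macrophages HIF-1 is also known to be induced by inflammatory signals.

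Values are log2 expression values as deposited, and differences are heme minus vehicle on that scale, so 1 is a 2-fold change. A level under 5.37, the median of all values, was not taken as above background. Single time points have no replicates, so their differences carry no test. Over the 3 time points, differences are given as mean ± SD (n = 3 time points), and limma with treatment and time as terms gave the p-values, adjusted over all 11516 genes; the threshold was 0.05. Nothing says that the arrays came from separate cultures, so the p-values say nothing of spread between cultures. They measure how far the heme difference varied between time points, and a heme effect that changes with time counts as spread. The fit has 2 residual and 7.17 prior degrees of freedom, so its p-values also lean on the spread of other genes.

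Known heme-responsive genes were higher with heme in all pairs. Spic, which encodes a transcription factor of iron-recycling macrophages, had 9.53, 10.49 and 10.17 with heme at 6, 24 and 72 h, against 5.76, 6.09 and 6.69 with vehicle, and the heme-degrading enzyme gene Hmox1 rose by 2.59 ± 0.28 (limma, adjusted p = 8.86e-05). Slc40a1, the iron exporter gene, rose by 2.31, and the glutathione and cystine genes Gclm and Slc7a11 by 2.46 and 1.95. Pairwise correlations between arrays were 0.975 to 0.986. The 6 h heme array stood slightly apart, with the highest median (5.45, against 5.34 to 5.39 on the others), so calls of members and of the pathway genes named are also given without the 6 h pair where they change. Macrophage markers were present at a summed level (log2 of the summed linear values) of 13.85 to 14.13 with heme and 13.79 to 14.12 with vehicle (6 of 7 markers measured). Among them Fcgr1 was lower with heme in every pair (mean -0.58, limma, adjusted p = 0.0999, and 0.036 without the 6 h pair). Csf1r was higher in every pair (mean 0.28, limma, adjusted p = 0.547). Neutrophil markers, 7 of 7 measured, summed to 13.33, 12.87 and 10.63 with heme at 6, 24 and 72 h, against 13.15, 10.90 and 9.98 with vehicle. None lay below 5.37 on all arrays, but Ly6g and Elane did on 5 of 6 arrays and Mpo and Ltf on 3. The sum rests mostly on S100a8 and S100a9, with 12.22 and 12.13 with heme at 6 h, against 9.54 for Camp. None of the 7 passed the limma test, and 3 had an unadjusted p under 0.05, against 1223 of 11516 genes. Without the 6 h pair, S100a8 (mean difference 1.34, limma, adjusted p = 2.75e-06), S100a9 (1.59, adjusted p = 2.3e-08) and Camp (0.98, adjusted p = 0.00302) passed, in the fit in which more members passed too; their part in those calls was not tested. Dendritic cell markers summed to 13.39 to 13.62 with heme and 13.34 to 13.40 with vehicle. Of these markers, 3 of 7 lay below 5.37 on all arrays. Ccr7 rose by 1.16 ± 0.59 (limma, adjusted p = 0.0279), but did not pass without the 24 h pair (adjusted p = 0.302). Itgax, Cd74 and H2-Ab1 differed by -0.08, 0.09 and 0.25 on average and did not pass. Stromal markers summed to 8.23 to 9.63 with heme and 8.53 to 9.19 with vehicle, and 4 of 5 mast cell and 3 of 4 endothelial markers lay below 5.37 on all arrays. Erythroid, B cell, and T and NK cell markers that were measured lay below 5.37 on all arrays. Where fewer cells of a type and less RNA per cell could both lower a level, bulk arrays cannot tell them apart.

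Of the 38 members tested, 2 rose with heme, both glucose transporter genes (Slc2a1 and Slc2a6), 1 fell (Epas1, the HIF-2 alpha gene), and 35 did not pass. Among all genes tested, 1.13% rose and 0.590% fell, 1.72% in all. At an unadjusted p under 0.05 there were 9 of 38 members and 1223 of all 11516 genes tested. Without the 24 h pair, 0 members passed in limma, and 0.0955% of all genes rose and 0.00868% fell. At an unadjusted p under 0.05 that fit had 4 of 38 members and 691 of 11516 genes. Without the 6 h pair, 7 members rose (Slc2a1, Slc2a6, Slc16a3, Egln3, Bnip3, Gbe1 and Hif1a) and 2 fell (Adm and Epas1), against 2.80% and 1.73% of all genes. That last fit has 1 residual degree of freedom and leans on a prior of 46.9 degrees of freedom, so its p-values rest mostly on the spread of other genes. Adm lay below 5.37 on every array but that of vehicle at 72 h (5.83), through which alone it passed the level filter. Its fall in that fit therefore rests on levels not taken as above background.

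SLC2A1 (GLUT1) is the main basal glucose transporter of most cells and a classic HIF target. Slc2a1 had 10.41, 10.44 and 10.13 with heme at 6, 24 and 72 h, against 9.45, 9.47 and 9.50 with vehicle. The groups did not overlap: every heme array was above every vehicle array. The mean difference was 0.86 ± 0.19, or 1.81-fold, and it passed (limma, adjusted p = 0.0187), but not without the 24 h pair (adjusted p = 0.375).

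SLC2A6 is a glucose transporter family member found on lysosomes and raised in inflammatory macrophages. Slc2a6 had 8.96, 8.87 and 7.24 with heme at 6, 24 and 72 h, against 7.62, 6.73 and 6.42 with vehicle. Heme was the higher of each pair, yet the groups overlapped, because the 72 h heme array was below the 6 h vehicle array. The differences of 1.34, 2.14 and 0.82 were 2.54-fold, 4.42-fold and 1.76-fold. Their mean of 1.44 ± 0.67 (2.70-fold) passed (limma, adjusted p = 0.0141), but not without the 24 h pair (adjusted p = 0.218). The difference was greatest at 24 h, where the summed neutrophil marker level, mostly S100a8 and S100a9, also differed most (1.97, heme minus vehicle). At 6 h, where Slc2a6 differed by 1.34, that sum differed by 0.18, and at 72 h by 0.65. The dendritic cell marker Ccr7 differed by 0.86, 1.84 and 0.78 at 6, 24 and 72 h, in the same order as Slc2a6. The part of any cell type in the Slc2a6 difference was not tested. The remaining glucose transporter, Slc2a3, had differences of -0.29, -0.08 and 0.09 and lay close to the threshold at 5.40 to 5.74.

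The bases just before the start of these 2 transporter genes, and of 3 other members described further on, are shown because HIFs bind the core letters ACGTG or GCGTG. They are 250 bases of the RefSeq promoter table (GRCm38.p6), 5′ to 3′ on the gene's strand, with capitals marking those letters on either strand (CACGT or CACGC when read on the other). CACGTG holds overlapping matches on both strands.
Slc2a1: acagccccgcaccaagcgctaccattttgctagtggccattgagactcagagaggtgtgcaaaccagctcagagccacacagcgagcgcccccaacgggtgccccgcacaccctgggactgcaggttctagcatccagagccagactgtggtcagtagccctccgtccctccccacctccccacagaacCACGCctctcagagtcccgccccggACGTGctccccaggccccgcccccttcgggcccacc
Slc2a6: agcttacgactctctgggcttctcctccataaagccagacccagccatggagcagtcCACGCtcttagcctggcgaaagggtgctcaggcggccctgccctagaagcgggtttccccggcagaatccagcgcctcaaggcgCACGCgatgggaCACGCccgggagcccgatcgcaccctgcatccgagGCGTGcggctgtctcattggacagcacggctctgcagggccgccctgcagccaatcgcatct
Egln3: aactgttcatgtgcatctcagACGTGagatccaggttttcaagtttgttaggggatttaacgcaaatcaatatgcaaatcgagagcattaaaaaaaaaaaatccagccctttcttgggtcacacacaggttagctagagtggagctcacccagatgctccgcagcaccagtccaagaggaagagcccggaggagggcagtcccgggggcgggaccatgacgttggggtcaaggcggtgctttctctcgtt
Bnip3: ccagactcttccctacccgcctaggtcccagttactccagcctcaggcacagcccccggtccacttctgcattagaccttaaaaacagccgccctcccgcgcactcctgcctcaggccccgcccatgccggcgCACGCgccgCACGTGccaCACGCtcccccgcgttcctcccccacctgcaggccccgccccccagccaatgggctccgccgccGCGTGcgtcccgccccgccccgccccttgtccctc
Gbe1: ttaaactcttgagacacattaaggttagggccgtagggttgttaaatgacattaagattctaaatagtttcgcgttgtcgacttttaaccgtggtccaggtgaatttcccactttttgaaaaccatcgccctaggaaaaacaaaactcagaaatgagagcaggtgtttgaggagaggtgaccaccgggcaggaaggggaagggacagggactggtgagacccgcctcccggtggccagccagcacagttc
The windows are chr4:119108495-119108744 on the plus strand for Slc2a1, chr2:27027999-27028248 on the minus strand for Slc2a6, chr12:54203875-54204124 on the minus strand for Egln3, chr7:138909507-138909756 on the minus strand for Bnip3 and chr16:70313699-70313948 on the plus strand for Gbe1. Slc2a1 has 2 matches, 61 and 36 bases before the start. Slc2a6 has 4, Bnip3 has 5, Egln3 has 1, 229 bases before the start, and Gbe1 has 0. Of 42 members, 38 had at least 1 entry in the table; Slc2a3, Bnip3l, Ndrg1 and Epas1 did not. A match was in 45 of the 57 promoter windows of members (78.9%), in 54.6% of those of genes past the level filter and in 38.6% of all promoters. It was in 79.4% of the glycolytic windows and in 77.3% of those of other HIF targets. The antioxidant response letters TGACNNNGC, bound by NRF2 with small MAF proteins and searched on both strands, were in 8.77% of members' windows and 10.2% of all. Letters in a window are a description and not evidence that a factor binds there.

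**Figure D1:**
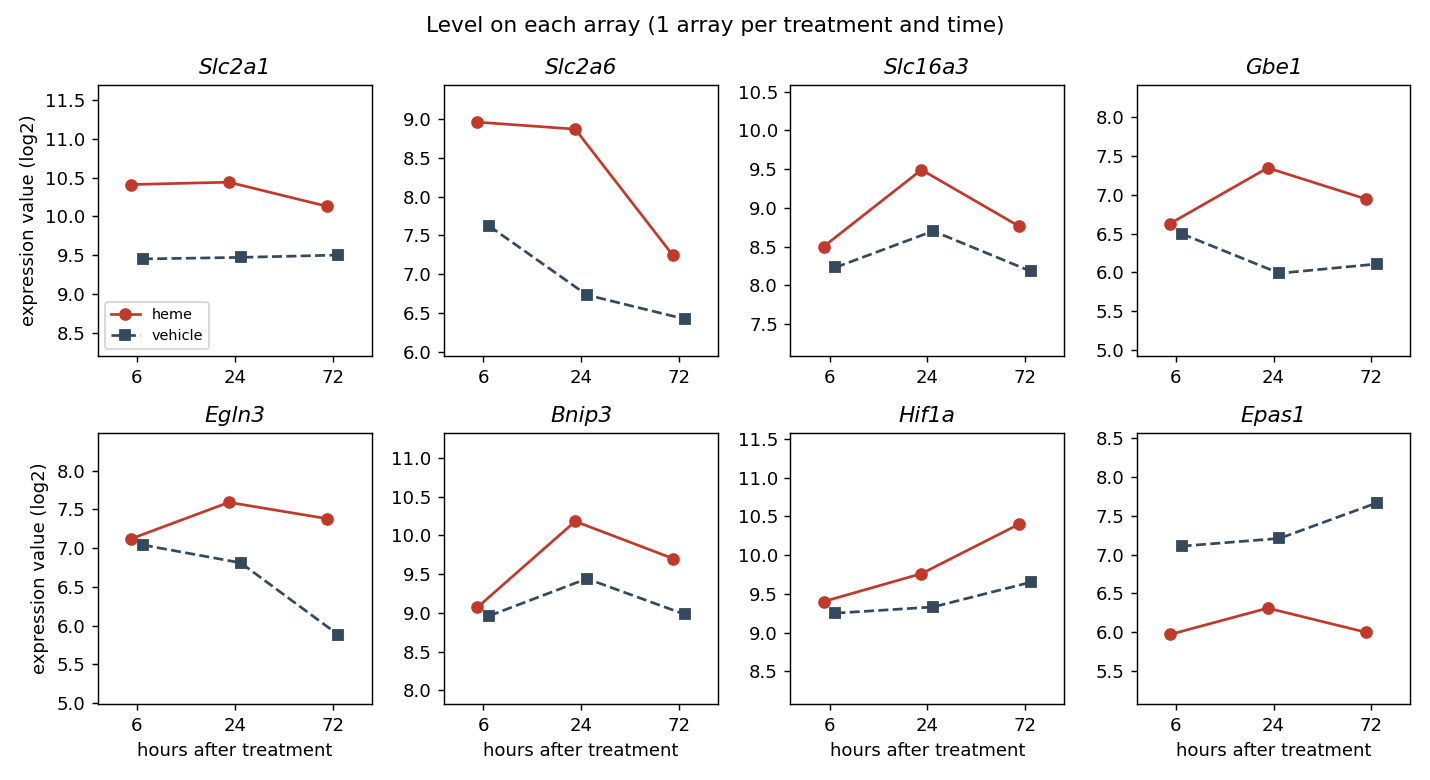
Level (log2 expression value) of 8 members against hours after treatment, 1 array per point, with heme as circles and vehicle as squares, each panel spanning 3.5 log2 units. Slc2a1, Egln3 and Gbe1 have every heme array above every vehicle array, and Epas1 has every heme array below.

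Hexokinases trap glucose by phosphorylation. None passed: Hk2 differed by 0.19, -0.08 and 0.19 at 6, 24 and 72 h, and Hk3 by -0.20, -0.05 and -0.29. For Hk1 the chosen probe set lists 1 transcript and differed by 0.24, -0.11 and -0.01. A second Hk1 probe set, which lists 8 transcripts, differed by 0.00, 0.28 and 0.08, and 16 further sets name Hk1 together with the ribosomal gene Rpl17, so the Hk1 level is uncertain.

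Phosphofructokinases commit sugar to glycolysis, and PFKFB enzymes make the sugar phosphate that activates them. Pfkfb3 had 7.26, 7.88 and 8.36 with heme at 6, 24 and 72 h, against 7.12, 7.50 and 7.63 with vehicle; heme was higher in each pair, the groups overlapped, and the mean of 0.41 ± 0.30 did not pass (limma, adjusted p = 0.328). Pfkp had 9.43, 8.77 and 8.55 with heme at 6, 24 and 72 h, against 8.98, 8.64 and 8.26 with vehicle, a mean difference of 0.29 ± 0.16 (adjusted p = 0.529, limma). Pfkl differed by -0.21, 0.42 and 0.49, Pfkm by -0.35, -0.02 and 0.33, and Pfkfb4 by -0.02, -0.19 and -0.04.
Aldolases and triose phosphate isomerase split the sugar and interconvert the pieces. Aldoa differed by -0.29, 0.38 and 0.29, Aldoc by -0.40, 0.38 and 0.31, and Tpi1 by -0.52, 0.48 and 0.52 at 6, 24 and 72 h. These 3 were lower with heme at 6 h and higher at both later times, and none passed the test over the 3 times. At 6 h only 36.5% of all genes were above 0. Their median was -0.10 and percentiles 5 and 25 were -0.65 and -0.31, so values like these were common at that time.

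Of the later steps, Pgk1, encoding phosphoglycerate kinase, which makes ATP, differed by -0.09, 0.28 and 0.67 at 6, 24 and 72 h; its mean of 0.29 ± 0.38 did not pass. Pkm, encoding pyruvate kinase, differed by 0.02, 0.49 and 0.41. Pgam1, the phosphoglycerate mutase gene, differed by -0.23, 0.32 and 0.01, and Ldha by -0.31, 0.35 and -0.14.
Slc16a3 encodes MCT4, the lactate exporter of glycolytic cells. It had 8.50, 9.49 and 8.76 with heme at 6, 24 and 72 h, against 8.23, 8.70 and 8.18 with vehicle. Heme was higher in each pair, with overlap between groups. With all pairs the mean of 0.54 ± 0.26 did not pass (limma, adjusted p = 0.145); the 24 h and 72 h pairs alone did (adjusted p = 0.0133).
Eno2, an enolase gene, was below 5.37 on all 6 arrays (4.50 to 4.99 with heme, 4.57 to 4.82 with vehicle) and was not tested. Gpi1 and Eno1 are not listed in the annotation supplied and were not analysed here, and the 25 probe sets for Gapdh all name other genes as well; their differences were -0.11 to -0.02 at 6 h, 0.11 to 0.24 at 24 h and 0.06 to 0.16 at 72 h.

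Of the HIF alpha subunit genes, Epas1 fell and Hif1a did not pass. Epas1 encodes HIF-2 alpha, which has fewer glycolytic targets than HIF-1. Epas1 had 5.97, 6.31 and 6.00 with heme at 6, 24 and 72 h, against 7.11, 7.21 and 7.67 with vehicle. The groups did not overlap: every heme array was lower than every vehicle array. Differences were -1.14, -0.90 and -1.66, with a mean of -1.23 ± 0.39, or 2.35-fold lower (limma, adjusted p = 0.00834); without the 24 h pair it did not pass (adjusted p = 0.115).
Hif1a, which encodes HIF-1 alpha, had 9.40, 9.76 and 10.40 with heme at 6, 24 and 72 h, against 9.25, 9.33 and 9.65 with vehicle. Heme was higher in each pair, with overlap between the groups. The mean of 0.44 ± 0.30 did not pass (limma, adjusted p = 0.275), but did without the 6 h pair (adjusted p = 0.045). HIF protein is set mostly by degradation, which these arrays do not measure.

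EGLN1 and EGLN3 are oxygen-sensing prolyl hydroxylases, and the genes of both are among the other HIF targets listed. Egln3 had 7.12, 7.59 and 7.38 with heme at 6, 24 and 72 h, against 7.04, 6.81 and 5.88 with vehicle. All heme arrays were above all vehicle arrays, with a margin of 0.08 at 6 h that grew to 1.51 (2.84-fold) at 72 h. The mean of 0.79 ± 0.71 did not pass (limma, adjusted p = 0.186), but did without the 6 h pair (adjusted p = 1.45e-05). Egln1 differed by -0.08, 0.18 and 0.34.

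BNIP3 and BNIP3L draw mitochondria into mitophagy. Bnip3 had 9.07, 10.18 and 9.70 with heme at 6, 24 and 72 h, against 8.96, 9.44 and 8.98 with vehicle. The pairs differed by 0.11, 0.74 and 0.72, with overlap between groups because the 6 h heme array was below the 24 h vehicle array. Its mean of 0.52 ± 0.36 did not pass (limma, adjusted p = 0.214), but did without the 6 h pair (adjusted p = 0.00611), and a second Bnip3 probe set differed by 0.14, 0.98 and 0.71. Bnip3l differed by -0.46, 0.22 and -0.06. Pdk1, a pyruvate dehydrogenase kinase gene, differed by -0.41, 0.45 and -0.06. Higd1a, a respiratory chain factor, differed by 0.14, 0.20 and -0.02, and Ak4, a mitochondrial adenylate kinase, by 0.45, 0.34 and -0.49; other probe sets of these genes gave -0.40, 0.01 and 0.56 for Higd1a and 0.29, 0.37 and 0.07 for Ak4.

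Gbe1 and Gys1, the glycogen genes on the list, did not pass. Gbe1, the branching enzyme gene, had 6.63, 7.35 and 6.95 with heme at 6, 24 and 72 h, against 6.50, 5.99 and 6.11 with vehicle, and the groups did not overlap. Its mean of 0.78 ± 0.62 did not pass (limma, adjusted p = 0.146), but did without the 6 h pair (adjusted p = 1.9e-05). At 24 h Gbe1 differed by 1.37, or 2.58-fold, again when the summed neutrophil marker level differed most. The part of neutrophils in it was not tested. Gys1, encoding glycogen synthase, differed by 0.11, 0.65 and 0.21 (0.32 ± 0.29; adjusted p = 0.519 in the limma fit).

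Vegfa, encoding a vessel growth factor, had 8.39, 8.93 and 9.76 with heme at 6, 24 and 72 h, against 8.37, 8.70 and 9.37 with vehicle, and did not pass (mean 0.21 ± 0.19, limma, adjusted p = 0.715). Adm, which encodes the vasodilator peptide adrenomedullin, was below 5.37 on 5 of 6 arrays, with 4.79 with heme at 72 h against 5.83 with vehicle. Since the heme level is only a bound, the decrease was at least 0.45 there. Its call without the 6 h pair (limma, adjusted p = 0.0242) rests on these levels and on 24 h levels that were both below 5.37. Ero1a (listed as Ero1l), an oxidase for protein folding, differed by 0.03, 0.37 and 0.26. P4ha1 and P4ha2 encode collagen prolyl hydroxylase subunits; P4ha1 differed by 0.21, -0.33 and 0.38, and P4ha2, below 5.37 on 4 arrays, by -0.12, -0.18 and -0.03. Ankrd37 differed by 0.04, -0.33 and 0.57, Ndrg1 by -0.34, 0.55 and 0.35, and Mxi1, a MYC antagonist, by -0.54, 0.21 and 0.06.

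**Figure D2:**
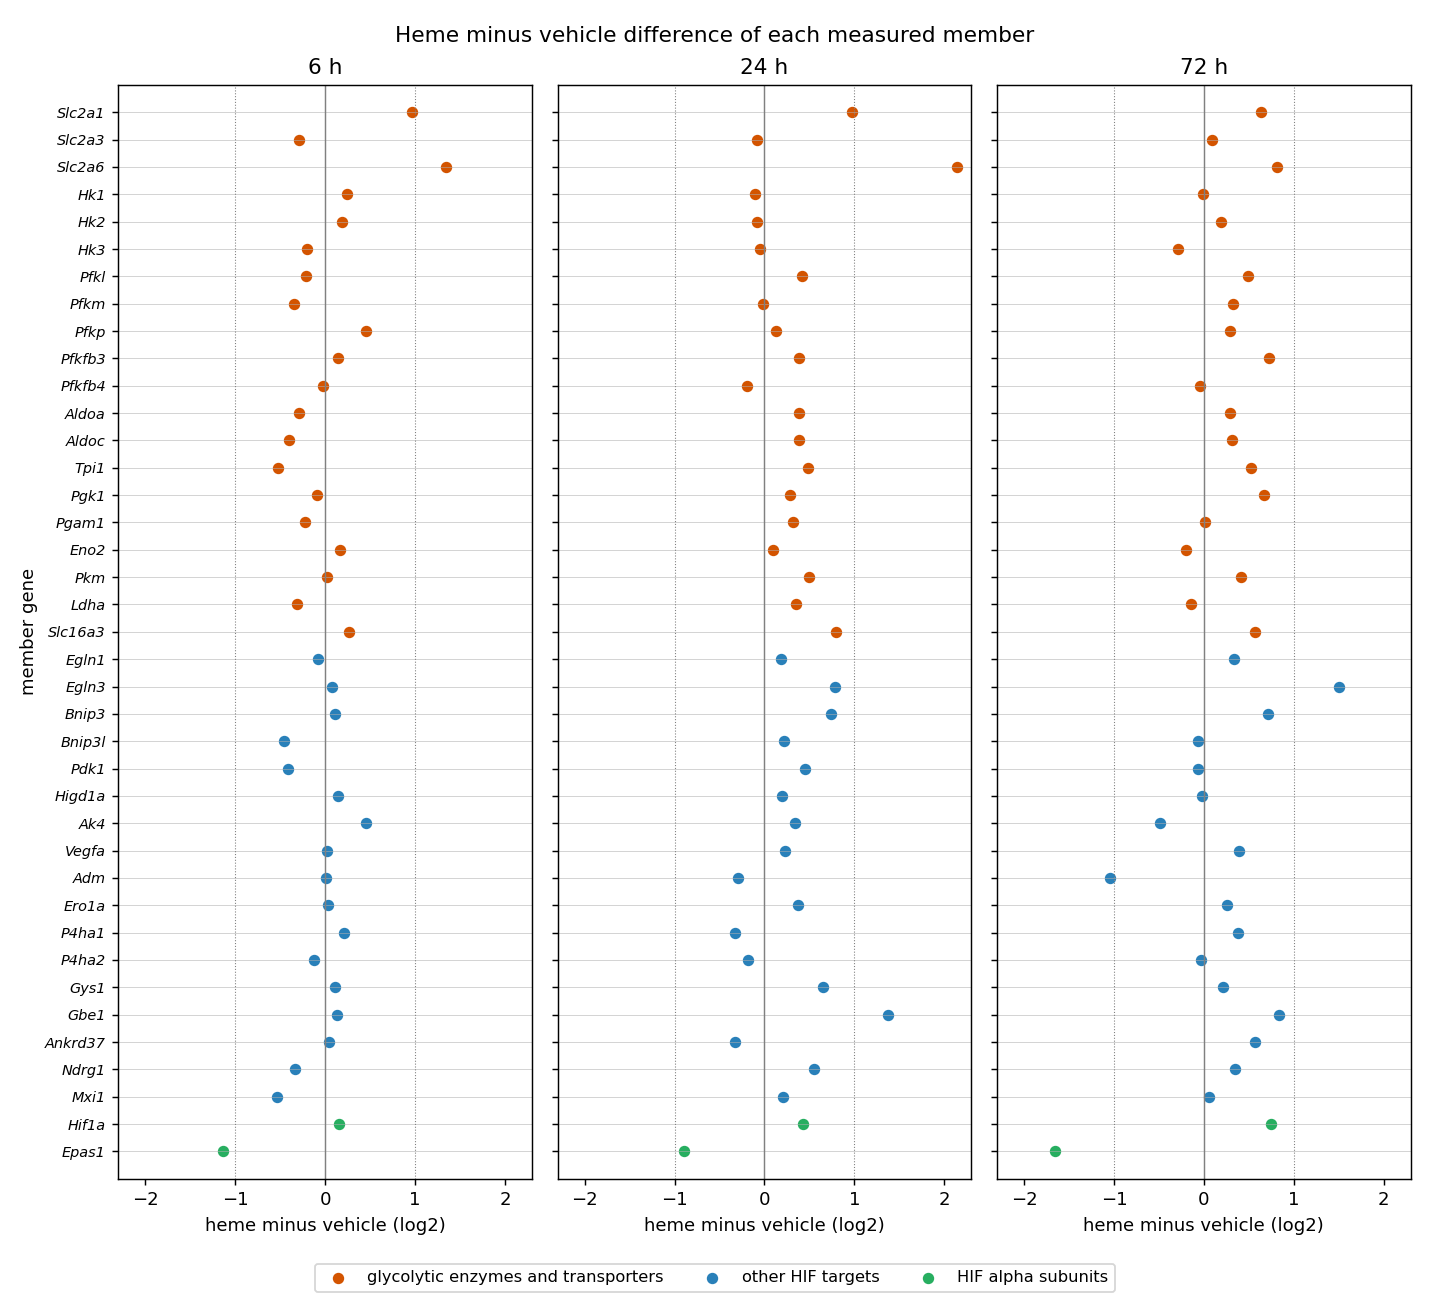
Heme minus vehicle difference (log2) at 6, 24 and 72 h for each of 39 measured members, including Eno2, with colour for the member group and dotted lines at a 2-fold change either way. Slc2a1 and Slc2a6 lie right of 0 and Epas1 left of 0 at all 3 times; most other members are nearer 0.

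At single time points, the members at 2-fold or more were few. At 6 h, Slc2a6 was up and Epas1 down (all genes: 0.964% up and 0.669% down). At 24 h, Slc2a6 and Gbe1 were up and 0 were down (1.42% and 0.486%). At 72 h, Egln3 was up and Epas1 and, by its measured and not its bounded level, Adm were down (1.25% and 0.608%). Members above 0 numbered 20, 27 and 27 of 38 in time order (52.6%, 71.1% and 71.1%), against 36.5%, 46.8% and 55.3% of all genes. The difference at 6 h was below both later ones for 24 members (63.2%), against 47.1% of all genes. It increased from 6 to 24 to 72 h for 10 members (26.3%, against 28.2%), and was highest at 24 h and lowest at 6 h for 14 (36.8%, against 18.9%). The neutrophil markers' summed level had the same order (0.18, 1.97 and 0.65, heme minus vehicle), and its part in these counts was not tested. The heme difference was above 0 at all 3 times for 13 members (34.2%, against 12.8%) and below 0 for 4 (10.5%, against 17.4%). Genes of the same pathways outside the member list did not share this. Of 19 further HIF targets, 0 were above 0 at all 3 times and 31.6% were below, with medians of -0.33, -0.11 and 0.03. Of 10 further glycolysis genes, 10.0% were above and 0.0% below, with medians of -0.37, 0.02 and 0.17. All heme levels were above all vehicle levels for 3 members (7.89%, against 5.40%) and below them for 1 (2.63%, against 5.85%).

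Glycolytic genes and the other HIF targets differed little in their medians. The 19 glycolytic members had median differences of -0.09, 0.35 and 0.31 in time order, the 17 other HIF targets 0.03, 0.23 and 0.26, and all genes -0.10, -0.02 and 0.03. The difference of the medians, glycolytic minus other targets, was -0.12, 0.13 and 0.04, with a mean over the times of 0.02 and an SD of 0.13, so it was smaller than its spread. The sign of the other HIF targets' median at 6 h depends on scaling, since with median-centring the all-gene median was -0.22 there, that of other HIF targets -0.08 and that of glycolytic members -0.20. Of the glycolytic members, 8, 13 and 15 of 19 were above 0 at 6, 24 and 72 h, and of the other targets 11, 13 and 11 of 17. All 3 changes past the test were outside the other HIF targets.

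**Figure D3:**
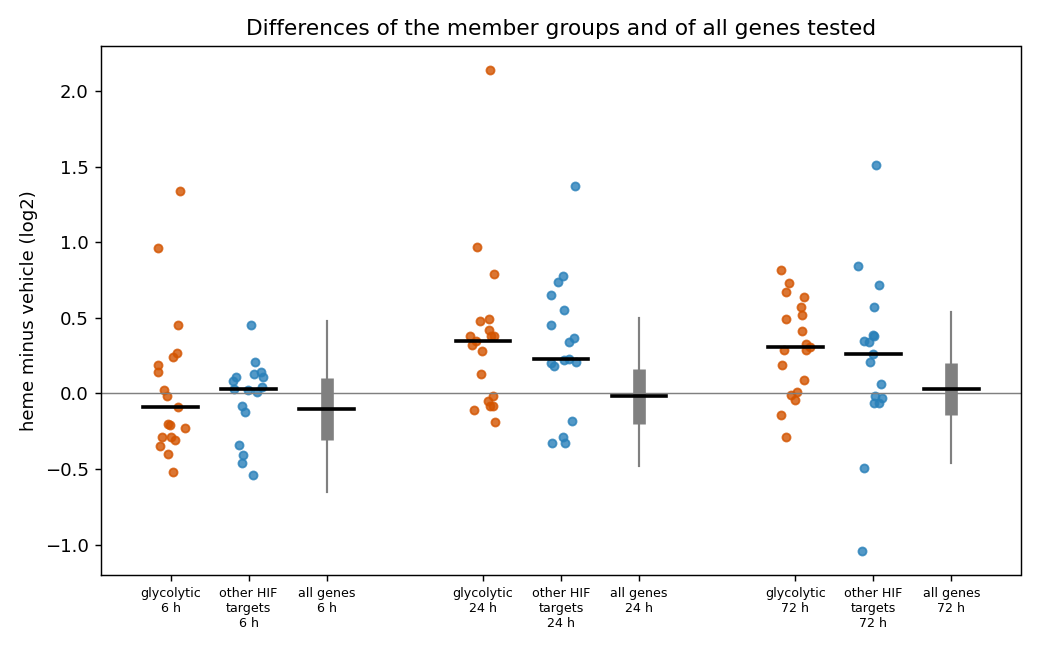
Heme minus vehicle differences (log2) at 6, 24 and 72 h of the 19 glycolytic members and 17 other HIF targets (points, black line at the median), beside all genes tested (thick grey line: percentiles 25 to 75, thin grey line: percentiles 5 to 95, black line: median). The member medians lie above the all-gene median at 24 h and 72 h.

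Culture time was tested over both treatments together. Against 6 h, 0 members passed at 24 h in either direction in limma (all genes: 0.226% up and 0.373% down). At an unadjusted p under 0.05 in that comparison there were 12 of 38 members and 1481 of 11516 genes. At 72 h 3 members rose and 2 fell (all genes: 3.06% up and 3.53% down). Vegfa rose by 1.18 (2.27-fold, limma, adjusted p = 0.00347), Pfkfb3 by 0.80 (adjusted p = 0.0353) and P4ha2 by 0.83 (adjusted p = 0.0156). P4ha2 reached the level filter only through its 72 h arrays (5.54 with heme and 5.56 with vehicle). Its 6 h levels (4.67 and 4.78) were not taken as above background, so the size of its rise and its call rest on such levels. Slc2a6 fell by 1.47 (2.76-fold lower; limma, adjusted p = 0.0125), and Pfkp fell by 0.80 (adjusted p = 0.0215). Hif1a changed by 0.70 without passing (limma, adjusted p = 0.062). Summed neutrophil marker levels were lower at 72 h in both treatments, and summed stromal marker levels were higher, at 9.63 at 72 h and 8.23 at 6 h with heme and at 9.19 and 8.63 with vehicle. Among stromal markers, Dcn rose by 1.57 (limma, adjusted p = 0.00926). Of 6 macrophage markers tested, 2 rose and 0 fell: Mertk by 1.33 (limma, adjusted p = 0.00373) and Csf1r by 0.74 (adjusted p = 0.0297). Lyz2, the highest of them, changed by 0.04. The part of any of these cell types in the falls and rises was not tested.

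**Figure D4:**
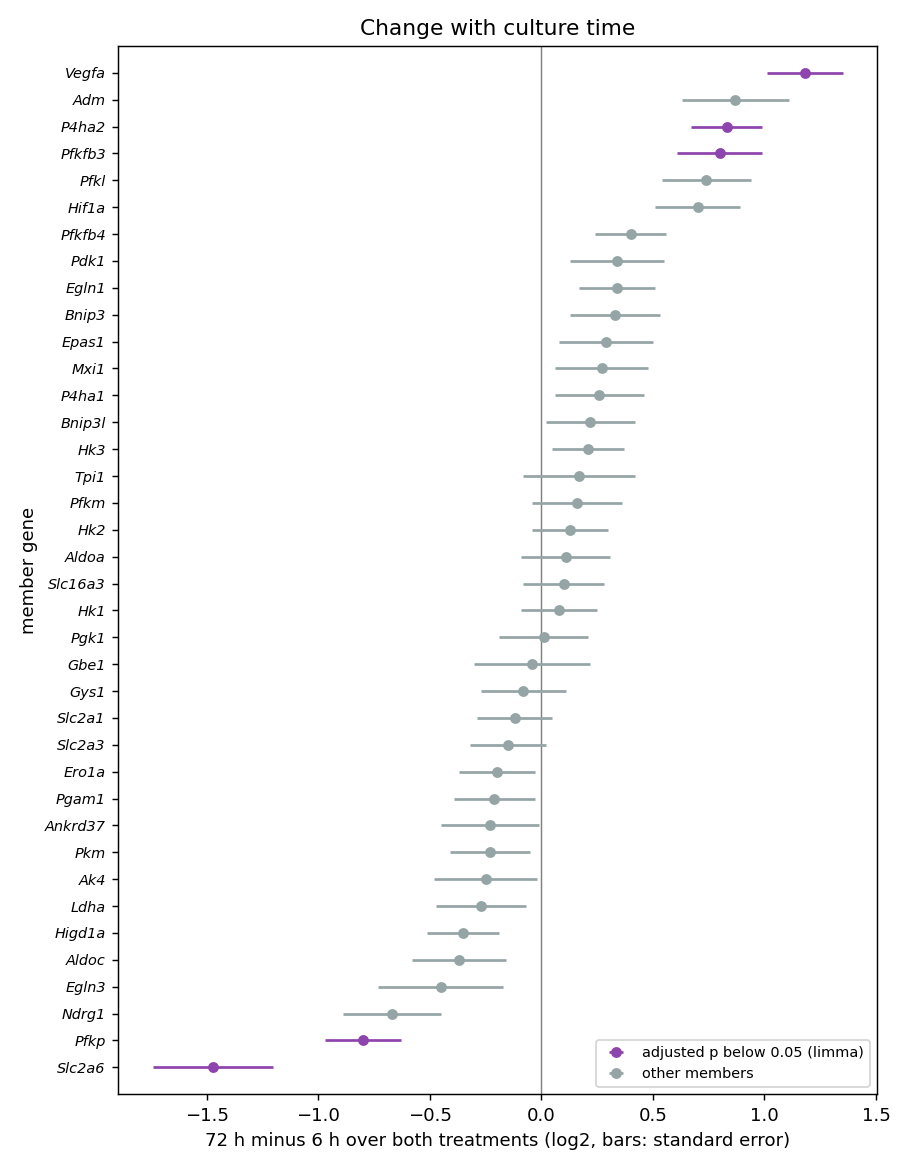
Change of 38 members from 6 h to 72 h over both treatments (log2, x axis) with the standard error of the limma fit, members ordered by size. Vegfa, P4ha2 and Pfkfb3 passed to the right and Slc2a6 and Pfkp to the left. P4ha2 reached the level filter only at 72 h.

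In other genes of these pathways, Pgd alone passed. The lists held 7 to 19 tested genes each, and among all genes tested 1.72% passed (1.13% rose). Over these lists together, its call is near that share. Pgd, an NADPH-producing enzyme gene of the pentose phosphate pathway, had 11.65, 11.99 and 11.75 with heme at 6, 24 and 72 h, against 10.97, 11.16 and 11.11 with vehicle, and the groups did not overlap. It rose by 0.72 ± 0.10 (limma, adjusted p = 0.0328), but did not pass without the 24 h pair (adjusted p = 0.471) or without the 72 h pair (adjusted p = 0.064). Of the other 6 pathway members tested none passed, and H6pd differed by 0.52 (limma, adjusted p = 0.188; 0.0345 without the 6 h pair), Taldo1 by 0.35 and Tkt by 0.33 on average.
None of 14 HIF regulators passed in limma (0 with an unadjusted p under 0.05, against 1223 of 11516 genes), with mean differences of -0.20 to 0.18. None of 19 further HIF targets passed (3 unadjusted), among them Bhlhe40, a transcriptional repressor, which differed by -0.49, -0.64 and -1.02 (limma, adjusted p = 0.053; 0.00152 without the 6 h pair), and Lox, a collagen-crosslinking enzyme, which differed by -0.57 ± 0.12. None of 10 further glycolysis genes, 14 genes of pyruvate fate and 9 glycogen genes passed (0, 4 and 1 unadjusted). Slc16a7, encoding a pyruvate and lactate transporter, differed by -1.08, -0.90 and -0.31 (limma, adjusted p = 0.0682; 0.0437 on leaving out the 6 h arrays, 0.0186 on leaving out those of 72 h). Gyg, encoding the glycogen primer, was lower with heme in every pair, by -0.38, -0.52 and -0.57, and did not pass (limma, adjusted p = 0.143).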

How the data were processed

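Each of 6 arrays held 1 biotin-labelled sample. The authors deposited log2 expression values after RMA and quantile normalization (ArrayStar software), per the series' design text and the submitters' processing notes, which name no versions. Of 35556 probe sets, 21789 named 1 gene, 1621 several and 12146 were not listed; identifiers of 21698 matched a current symbol. For the 999 genes with several sets, the one with the highest mean was used. A gene was kept where its highest level reached 5.37. R 4.3.3 with limma 3.58.1 (lmFit and eBayes, two-sided, time as a term, 2 residual degrees of freedom, Benjamini-Hochberg) was used, and the step was tested on simulated data. A time-specific effect could not be tested. Every member was named, plus every gene of the heme response check (Spic, Hmox1, Slc40a1, Gclm and Slc7a11), cell type markers, and up to 4 genes of each other list by largest difference. Members and lists were chosen with earlier results of these data known. The probe set with the lowest mean was an alternative chosen after seeing the data; the rest are in the closing section.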

Additional observations from a re-analysis of the deposited data

How the results depend on the processing

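With every scaling, level filter, probe set rule, variance trend and robust fit tried, Slc2a1, Slc2a6 and Epas1 were the members that passed. Without a time term 0 members rose and 0 fell, with adjusted p of 0.0833, 0.626 and 0.0833 in limma for Slc2a1, Slc2a6 and Epas1, and over all genes 17 rose and 1 fell. Leaving out 1 time point gave 0 to 7 members rising and 0 to 2 falling, and over all genes 11 to 322 and 1 to 199. Among all genes, 130 rose and 68 fell, against 115 and 36 with cyclic loess and 162 and 117 with median-centring, where 1 member also rose at 24 h against 6 h. At 1.5-fold, 2, 7 and 8 members were up at 6, 24 and 72 h (all genes: 3.36%, 3.70% and 4.21%) and 1, 1 and 2 were down (6.89%, 2.83% and 2.67%). At 4-fold, 0, 1 and 0 were up (0.200%, 0.391% and 0.252%) and 0 were down (0.00868%, 0.0347% and 0.0434%). Cyclic loess gave 2 up at 6 h, and the filter on the mean level 1 down at 72 h. Means in place of medians gave 0.07 for glycolytic minus other targets at 6 h. Signs of differences near 0 turned for Pgam1 (-0.0055 with median-centring), Ldha (0.0091 with cyclic loess) and Pdk1 (0.0073 with a second quantile normalization, 0.019 with cyclic loess), and on leaving out a time point for Slc2a3 (-0.18 to 0.0069), Hk1 (-0.059 to 0.12), Pfkm (-0.18 to 0.15), Aldoc (-0.047 to 0.35), Tpi1 (-0.018 to 0.5), Pgam1 (-0.11 to 0.16), Ldha (-0.22 to 0.11), Bnip3l (-0.26 to 0.076), Pdk1 (-0.23 to 0.2), Ak4 (-0.072 to 0.4), P4ha1 (-0.057 to 0.29), Ankrd37 (-0.14 to 0.31), Mxi1 (-0.24 to 0.14); glycolytic minus other targets then ran from -0.05 to 0.14. The cause was not tested. The fit with time as a term pairs heme and vehicle by time point, and the calls rest on that pairing. Limits are 1 array per group, and that dim levels are compressed towards 0.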
